A study of Homo sapiens with 21 samples.

Results

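The 91 genes described here are the long intergenic noncoding RNA (lincRNA) genes with readily measured transcripts in C3A cells. They were selected on their level: the genes with the biotype lincRNA in the deposited tables whose mean FPKM (read fragments scaled to gene length and library size) over all 21 libraries was 3 or more. H19, GAS5 and the SNHG genes were left out. The 91 were taken from 28808 genes in all, of which 2624 had that biotype. The level itself chose them, so levels are given as a description. At the edge of the choice, AL034417.2 (mean 3.14 FPKM), AC115619.1 (3.06) and URB1-AS1 (3.02) lay just inside, and AC005838.2 (2.99), AL162411.1 (2.94) and AL049836.1 (2.92) just outside.

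C3A is a clonal line derived from the human hepatoma line HepG2. One group of 6 libraries came from unexposed cells, and 3 libraries came from each of 5 exposures of 48 h: glyphosate, a herbicide (5.6 µM, 0.95 µg/mL), AMPA, the main breakdown product of glyphosate (34 µM, 3.7 µg/mL), 2,4-D, a herbicide that mimics a plant auxin (2.5 µM, 0.56 µg/mL), and 2 mixtures at those same concentrations, AMPA+2,4-D and glyphosate+2,4-D. The labels number the unexposed libraries 1 to 6. They do not say whether libraries of a group came from separate cultures, so p-values measure only the spread between these libraries, which may be technical.

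lincRNAs are transcribed by RNA polymerase II, and most are spliced, capped and polyadenylated as messenger RNAs are, but they do not code for a protein. Many stay in the nucleus, are short-lived and are made at low levels. Some have well known roles: NORAD, in the cytoplasm, binds the Pumilio proteins that repress messenger RNAs; NEAT1 is the scaffold of the nuclear bodies called paraspeckles; and MALAT1 gathers in nuclear speckles, where splicing factors are stored.

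Between 15.2 and 24.35 M reads per library could be read back from the tables, and the 91 lincRNA genes held 0.225% to 0.268% of them. In their levels the unexposed libraries fell into 2 sets, replicates 1 to 3 and replicates 4 to 6. Results are therefore given against all 6 and, where it matters, against each set. The test against all 6 took them as independent libraries of 1 group. Its SE and p-values thus mix the spread within a set with the difference between the sets. The labels name no batch and tie the exposed libraries to neither set, so an exposure and a batch that the exposed libraries might share cannot be told apart. The summed FPKM of 9 hepatocyte markers, to which ALB, AFP and SERPINA1 gave most, was 5631 to 6062 in unexposed 1 to 3, 8126 to 9298 in unexposed 4 to 6 and 9143 to 10701 in the exposed libraries. The members differed: APOB lay at 443 to 571 FPKM in the 6 unexposed libraries and lower, at 333 to 436, in the exposed ones, and FGB overlapped at 11.2 to 20.7 and 15.2 to 19.7. HNF4A, a liver transcription factor, lay at 43.1 to 45.6 FPKM in the 6 unexposed libraries and at 23.9 to 28.4 in the exposed ones. Of the fibroblast markers COL1A1 and COL3A1 lay at or near 0 (at most 0.0201 and 0.0187 FPKM) and PDGFRB at 1.22 to 2.78, and the summed FPKM of 3 endothelial markers lay between 0.0716 and 0.200. Of the leukocyte markers CD68 and CD14 stayed at or below 0.327 FPKM, while LYZ lay at 324 to 625. The part of these shifts in the results below was not tested. In such bulk libraries, fewer cells of a type and less RNA per cell cannot be told apart.

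The sequences below belong to the lincRNAs on which the results turn. The first is a stretch of NORAD, shown because its repeated Pumilio sites are the best understood sequence feature in the list; it lies at chr20:36049491-36049732 on the minus strand (GRCh38, from the GENCODE 29 transcript). Capitals mark TGTANATA, the core Pumilio motif, searched on the transcript strand only.
NORAD: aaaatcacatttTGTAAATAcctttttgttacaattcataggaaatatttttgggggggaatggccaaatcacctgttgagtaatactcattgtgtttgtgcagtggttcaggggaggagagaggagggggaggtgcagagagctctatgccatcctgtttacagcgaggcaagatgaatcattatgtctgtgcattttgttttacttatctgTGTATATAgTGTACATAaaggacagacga
This stretch held 3 of the 15 matches in the NORAD transcript of 5339 bases, a density of 2.81 per kb. NEAT1 held 6 matches. Of the 91 transcripts, 10 held at least one match, and over all of them the density was 0.211 per kb. NORAD gave 15 of the 33 matches, and without it the density was 0.119 per kb. In the transcripts of the other 2533 lincRNA genes 10.6% held a match, at 0.095 per kb. A match is a run of letters and not a measured binding site.

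The start of the transcript is given for 3 lincRNAs with large differences in level, since no promoter window matched them; each is the first 120 bases of the longest GENCODE 29 transcript, with no letters marked. AL365226.2 and AC007493.1 were higher in exposed cells and AL928921.1 was lower.
AL365226.2: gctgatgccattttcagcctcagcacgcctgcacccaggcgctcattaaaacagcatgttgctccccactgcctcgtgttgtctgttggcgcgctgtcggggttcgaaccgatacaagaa
AC007493.1: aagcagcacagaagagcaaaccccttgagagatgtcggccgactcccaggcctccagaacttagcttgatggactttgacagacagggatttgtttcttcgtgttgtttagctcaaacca
AL928921.1: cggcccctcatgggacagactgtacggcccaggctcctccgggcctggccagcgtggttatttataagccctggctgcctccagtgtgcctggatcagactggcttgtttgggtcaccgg

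RefSeq promoter windows (250 bases before to 50 after the start, build GRCh38.p14) matched 29 of the 91 genes by symbol, and in 21 of these the RefSeq start lay within 250 bases of the gene start in the tables. The 4 printed belong to genes that differed between exposed and unexposed cells: NORAD at chr20:36050911-36051210 (minus strand), LINC01820 at chr2:46394118-46394417 (minus strand), AL355338.1 (PCCA-DT in RefSeq) at chr13:100088894-100089193 (minus strand) and AL034417.2 (ERRFI1-DT in RefSeq) at chr1:8026243-8026542 (plus strand). The RefSeq start lay 95 bases from the gene start in the tables for AL355338.1 and 245 bases for AL034417.2, and at the same base for the other two. Capitals mark an E-box, CACGTG, which contains the hypoxia response motif ACGTG.
NORAD promoter: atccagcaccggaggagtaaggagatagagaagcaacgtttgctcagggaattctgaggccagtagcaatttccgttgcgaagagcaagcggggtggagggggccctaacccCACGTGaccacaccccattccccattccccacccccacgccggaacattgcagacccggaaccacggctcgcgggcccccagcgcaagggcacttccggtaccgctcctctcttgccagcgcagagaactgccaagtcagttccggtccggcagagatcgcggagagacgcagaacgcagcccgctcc
LINC01820 promoter: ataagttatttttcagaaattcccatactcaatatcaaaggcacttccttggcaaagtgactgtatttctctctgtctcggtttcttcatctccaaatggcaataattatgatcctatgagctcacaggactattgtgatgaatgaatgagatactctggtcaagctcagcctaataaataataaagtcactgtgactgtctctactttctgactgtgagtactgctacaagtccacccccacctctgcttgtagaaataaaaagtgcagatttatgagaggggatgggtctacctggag
AL355338.1 promoter: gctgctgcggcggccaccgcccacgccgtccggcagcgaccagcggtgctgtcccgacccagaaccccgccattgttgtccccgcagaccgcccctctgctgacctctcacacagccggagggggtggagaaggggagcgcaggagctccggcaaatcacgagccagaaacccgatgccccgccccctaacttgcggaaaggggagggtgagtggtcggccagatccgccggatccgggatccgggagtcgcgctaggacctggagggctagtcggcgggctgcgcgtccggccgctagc
AL034417.2 promoter: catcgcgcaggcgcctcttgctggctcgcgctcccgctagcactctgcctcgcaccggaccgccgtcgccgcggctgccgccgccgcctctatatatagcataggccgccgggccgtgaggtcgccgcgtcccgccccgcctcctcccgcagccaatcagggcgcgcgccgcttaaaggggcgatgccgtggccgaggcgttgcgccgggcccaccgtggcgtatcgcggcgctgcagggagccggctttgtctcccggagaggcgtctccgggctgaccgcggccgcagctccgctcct
A set of 6 motifs was searched on both strands. ACGTG was in 7 of the 21 windows (33.3%) against 21.4% of 35116 RefSeq promoters, CACGTG in 3 (14.3% against 7.26%) and the heat shock motif GAANNTTC in 1 (4.76% against 6.77%). The AP-1 motif TGANTCA, the cyclic AMP response motif TGACGTCA and the TATA box TATAAA were in none of the 21 windows, against 7.71%, 1.85% and 11.5% of all promoters. ACGTG is contained in CACGTG, so both counts share windows.

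**Figure D1:**
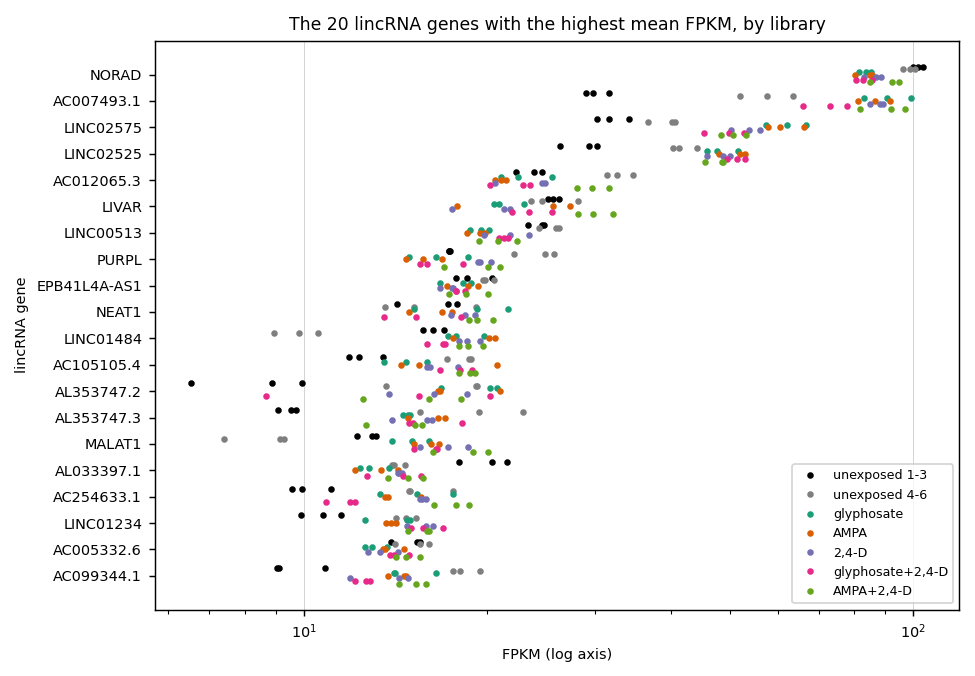
FPKM (log axis) of the 20 lincRNA genes with the highest means, 1 point per library, coloured by group and with the unexposed libraries split into replicates 1-3 and 4-6. NORAD lies highest, at 80.2 to 104 FPKM in all 21 libraries, and AC007493.1 runs from 29 in unexposed cells to 99.0 in exposed cells.

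Levels were spread widely. The median gene had a mean of 5.87 FPKM and the highest, NORAD, 89.6. Of the 91, 67 lay at 3 to under 10 FPKM, 20 at 10 to under 30 and 4 at 30 or more, and those 4 held 27.8% of the summed level. By name, 53 carried only a clone name, 18 a LINC number, 11 another symbol and 5 an AS or DT ending (antisense or divergent transcript); 2 were microRNA host genes and 2 were the nuclear-body RNAs NEAT1 and MALAT1. Gene length ran from 110 to 22767 bases, with a median of 913, and 29 genes had a single exon. All 91 passed the filter of the test, which kept 13405 genes at 1 FPKM or more in at least 3 libraries.

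Against the 6 unexposed libraries, lincRNAs called higher and called lower were about equally many with 4 of the exposures, and on the FPKM scale more were higher than lower with AMPA+2,4-D. The test was limma on log2(FPKM + 1), with p-values adjusted by Benjamini-Hochberg over all 13405 genes and a call at adjusted p under 0.05. With glyphosate 29 were higher and 27 lower, where 27.7% and 25.1% of all genes tested were. With AMPA 25 were higher and 25 lower (28.0% and 24.8% of all genes). With 2,4-D 23 were higher and 23 lower (25.0% and 22.6%). With glyphosate+2,4-D 23 were higher and 24 lower (25.4% and 22.7%), and with AMPA+2,4-D 29 were higher and 19 lower (26.0% and 24.4%). As shares of the 91, the calls came to 61.5%, 54.9%, 50.5%, 51.6% and 52.7% in that order of exposures, beside 52.7%, 52.8%, 47.6%, 48.1% and 50.4% of all genes tested. These shares lie near the background and are no result about lincRNAs.

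Against unexposed 1 to 3 alone the counts higher and lower were 32 and 24 with glyphosate (29.8% and 27.4% of all genes), 34 and 23 with AMPA (30.4% and 27.5%) and 32 and 24 with 2,4-D (28.0% and 25.9%). They were 29 and 22 with glyphosate+2,4-D (28.2% and 26.3%) and 36 and 21 with AMPA+2,4-D (28.5% and 26.2%). Against unexposed 4 to 6 alone they were 28 and 34 with glyphosate (27.3% and 23.4%), 25 and 26 with AMPA (27.8% and 23.2%) and 22 and 29 with 2,4-D (24.9% and 21.2%). They were 23 and 30 with glyphosate+2,4-D (25.1% and 21.2%) and 24 and 23 with AMPA+2,4-D (26.3% and 23.3%). More were higher than lower against the first set, and with each exposure other than AMPA+2,4-D fewer were higher than lower against the second.

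The median log2 change of the 91 was 0.05 with glyphosate, 0.05 with AMPA, 0.03 with 2,4-D, 0.00 with glyphosate+2,4-D and 0.08 with AMPA+2,4-D. Over all genes tested it was 0.01, 0.01, 0.00, 0.00 and 0.00. The 5 comparisons share the unexposed libraries, so their counts are not independent of each other. A log2 change here is that of FPKM + 1, which understates the change of genes at low levels. On the TPM scale the median of all genes shifted to between -0.14 and -0.08, and the 91 split into 23 higher and 33 lower with glyphosate, 21 and 34 with AMPA, 20 and 27 with 2,4-D, 17 and 29 with glyphosate+2,4-D, and 21 and 21 with AMPA+2,4-D. The balance of higher and lower calls thus differed with the scale. The shares of all genes called higher and lower on the TPM scale were not computed. Without them the TPM counts are no result about lincRNAs. Each median of the 91 on that scale lay within 0.1 of the median of all genes.

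The choice by mean level bears on these counts. In 10 of the 91 the mean was under 3 FPKM in unexposed cells, so they entered through the exposed libraries, and all 10 were called higher with glyphosate. Of those named here, they are AC108865.1, LINC01293, LINC01820, AL034417.2, AC073569.2, AC099795.1, AC015912.3 and OSER1-DT. In 6 others the mean over the 15 exposed libraries was under 3 FPKM, so they entered through the unexposed ones; of those named here, they are U62317.1, AC020656.2, AC148476.1, AC115619.1 and URB1-AS1. The differences of these 16 follow in part from the choice, and their values are given as a description, with no test. Among the 70 with a mean of 3 or more in every group, 19 were higher and 18 lower with glyphosate.

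Of the 345 other lincRNA genes tested, 49 (14.2%) were higher and 84 (24.3%) lower with glyphosate, and 47 (13.6%) and 94 (27.2%) with AMPA. The counts were 43 (12.5%) and 82 (23.8%) with 2,4-D and 39 (11.3%) and 78 (22.6%) with glyphosate+2,4-D. With AMPA+2,4-D 46 (13.3%) were higher and 85 (24.6%) lower. The shares of all genes are those given above for each exposure. The median log2 change of the 345 lay between -0.09 and -0.07. The median distance from estimate to 95% bound was 0.33 for them and 0.28 for the 91. The choice took a mean over 21 libraries, 15 of them exposed. Near the threshold it thus tended to place genes higher in exposed cells among the 91 and lower ones among the 345. Of the 91, 10 entered through the exposed libraries and 6 through the unexposed ones. Part of the difference between the 2 sets of lincRNAs can follow from this choice, and the difference was not tested.

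AL365226.2 showed the largest rise of the 91 with glyphosate, AMPA and 2,4-D. It is a gene of 3 exons and 397 bases of transcript at chr6:70394887-70399417, named only by its clone, and its function is not known. Its level was 5.26, 5.53 and 2.34 FPKM in unexposed 1 to 3 and 5.51, 5.82 and 6.02 in unexposed 4 to 6. It was 14.9, 18.3 and 21.1 FPKM with glyphosate, 18.6, 19.2 and 18.1 with AMPA and 14.6, 10.4 and 19.5 with 2,4-D. With glyphosate+2,4-D it was 14.9, 12.9 and 13.9 FPKM, and with AMPA+2,4-D 11, 16.6 and 13. Every exposed library lay above every unexposed one, and unexposed 3 lay lowest of all. The log2 changes were 1.68 with glyphosate, 1.73 with AMPA, 1.38 with 2,4-D, 1.34 with glyphosate+2,4-D and 1.28 with AMPA+2,4-D (SE 0.20 each, limma adjusted p from 1.7e-06 to 5.8e-05). It rested on 18 to 175 reads per library.

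AC108865.1, a 2-exon gene of 496 bases at chr4:186890969-186892366, entered the list through the exposed libraries. Unexposed 1 to 3 held 0.881, 0.972 and 0.728 FPKM and unexposed 4 to 6 1.10, 1.98 and 3.11. The 15 exposed libraries ran from 2.75 to 6.76 FPKM, with a median of 4.59. One 2,4-D library lay below unexposed 6, and all other exposed libraries lay above all unexposed ones. The log2 changes ran from 1.09 with 2,4-D to 1.49 with glyphosate+2,4-D (SE 0.23). Counts were low, with 7 to 55 reads per library.

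AC007493.1 stood out by both level and change. This gene of 20 annotated exons lies at chr16:50407666-50546347, and its end is 1983 bases from NKD1, which codes for an inhibitor of Wnt signalling. It lay at 31.6, 29 and 29.8 FPKM in unexposed 1 to 3 and at 63.5, 52.0 and 57.6 in unexposed 4 to 6. The exposed libraries ran from 65.9 to 99.0 FPKM with a median of 86.6, so the 3 sets of libraries formed 3 steps with no overlap. Against all 6 unexposed libraries the log2 change was 1.10 with glyphosate, 1.03 with AMPA, 1.05 with 2,4-D, 0.78 with glyphosate+2,4-D and 1.09 with AMPA+2,4-D (SE 0.20, limma adjusted p at most 0.0038). Against unexposed 4 to 6 alone it was 0.32 to 0.65. NKD1 rose as well, by 0.40 to 0.56 on the log2 scale (limma adjusted p at most 0.00022).

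The same order of steps, unexposed 1 to 3 lowest and exposed highest with no overlap, was seen in LINC02575, LINC02525 and LINC01293; no function is given here for these. LINC02575 at chr21:44485577-44490288 lay at 34.2, 30.3 and 31.7 FPKM, then 40.3, 36.7 and 40.7, and at 45.3 to 66.7 in the exposed libraries (median 53.7). LINC02525 at chr6:3182744-3195756 lay at 30.2, 29.4 and 26.3 FPKM, then 40.4, 41.2 and 44.2, and at 45.5 to 53.0 in exposed cells (median 48.8). LINC01293 at chr2:74940258-74942670 lay at 1.04, 0.761 and 1.14 FPKM, then 2.46, 2.10 and 2.56, and at 3.06 to 5.92 in exposed cells (median 4.08). Together with AC007493.1 these are 4 of the 91 with this order, beside 5.21% of all genes tested. Their log2 changes against all unexposed libraries were 0.46 to 0.79 for LINC02575, 0.45 to 0.55 for LINC02525 and 0.89 to 1.15 for LINC01293. LINC02575 and LINC02525 passed the limma threshold with each exposure (adjusted p at most 0.00019 and 0.0052), and LINC01293, which entered through the exposed libraries, is given as a description.

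LINC01820 lies 5594 bases from EPAS1, which codes for the hypoxia-inducible factor HIF-2α, and neither ACGTG nor the other motifs were in its promoter window printed above. It lay at 0.937, 1.79 and 1.90 FPKM in unexposed 1 to 3 and at 1.73, 2.16 and 2.97 in unexposed 4 to 6. The exposed libraries ran from 2.64 to 6.14 FPKM, with a median of 4.47. They overlapped unexposed cells only through one 2,4-D library. The log2 change ran from 0.68 with 2,4-D to 1.16 with glyphosate (SE 0.16), and the gene is among those that entered the list through the exposed libraries. EPAS1 rose by 0.25 to 0.46 on the log2 scale.

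Among RNAs of known function, MALAT1 was higher with every exposure. It lay at 12.3, 13.2 and 13 FPKM in unexposed 1 to 3 and at 9.14, 7.41 and 9.30 in unexposed 4 to 6. With glyphosate it lay at 13.9, 16.1 and 15.1 FPKM, with AMPA at 15.2, 16.6 and 16.2 and with 2,4-D at 17.2, 15.5 and 18.6. With glyphosate+2,4-D it lay at 15.2, 16.5 and 16.6 FPKM, and with AMPA+2,4-D at 19, 16.3 and 20.1. All exposed libraries lay above all unexposed ones, and unexposed 4 to 6 lay farthest from them. The log2 change was 0.48, 0.57, 0.65, 0.57 and 0.75 in that order of exposures (SE 0.13, limma adjusted p from 0.00012 to 0.0049). It held against each unexposed set alone, at 0.21 to 0.49 against replicates 1 to 3 and 0.74 to 1.02 against replicates 4 to 6. Exons of AP000769.2 on the opposite strand overlap 396 bases of MALAT1, and the labels do not state strand, so those reads cannot be told apart.

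NEAT1, transcribed from the same region of chromosome 11, was not called with any exposure. It lay at 17.8, 17.2 and 14.2 FPKM in unexposed 1 to 3, at 19.2, 13.6 and 15.2 in unexposed 4 to 6 and at 13.5 to 21.6 (median 18.1) in exposed cells. The groups overlapped, with 4 exposed libraries above the highest unexposed one. The log2 changes ran from -0.05 with glyphosate+2,4-D to 0.26 with AMPA+2,4-D (SE 0.11, limma adjusted p at least 0.061). The call was gained with AMPA+2,4-D when unexposed 1, unexposed 4, glyphosate 1 or glyphosate 2 was left out, and with glyphosate when glyphosate 1 was left out. Of the protein partners of NEAT1, NONO fell with each exposure other than glyphosate+2,4-D, by 0.10 to 0.17 on the log2 scale, while SFPQ and PSPC1 were not called.

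The wider list of 43 tested paraspeckle protein genes had 15 higher and 9 lower with glyphosate, 14 and 8 with AMPA, 15 and 7 with 2,4-D, 15 and 6 with glyphosate+2,4-D and 18 and 7 with AMPA+2,4-D. Its median log2 change was 0.05 to 0.09. Of 28 tested genes of nuclear RNA decay (exosome subunits and the adaptors that bring it to noncoding RNAs) 8 to 12 were higher and 1 to 3 lower, with medians of 0.07 to 0.11. Of 17 tested genes of the Integrator complex, which ends transcription of many noncoding RNAs, 5 or 6 were higher and 3 or 4 lower. The background shares are those given above for each exposure. None of these lists was tested as a set.

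**Figure D2:**
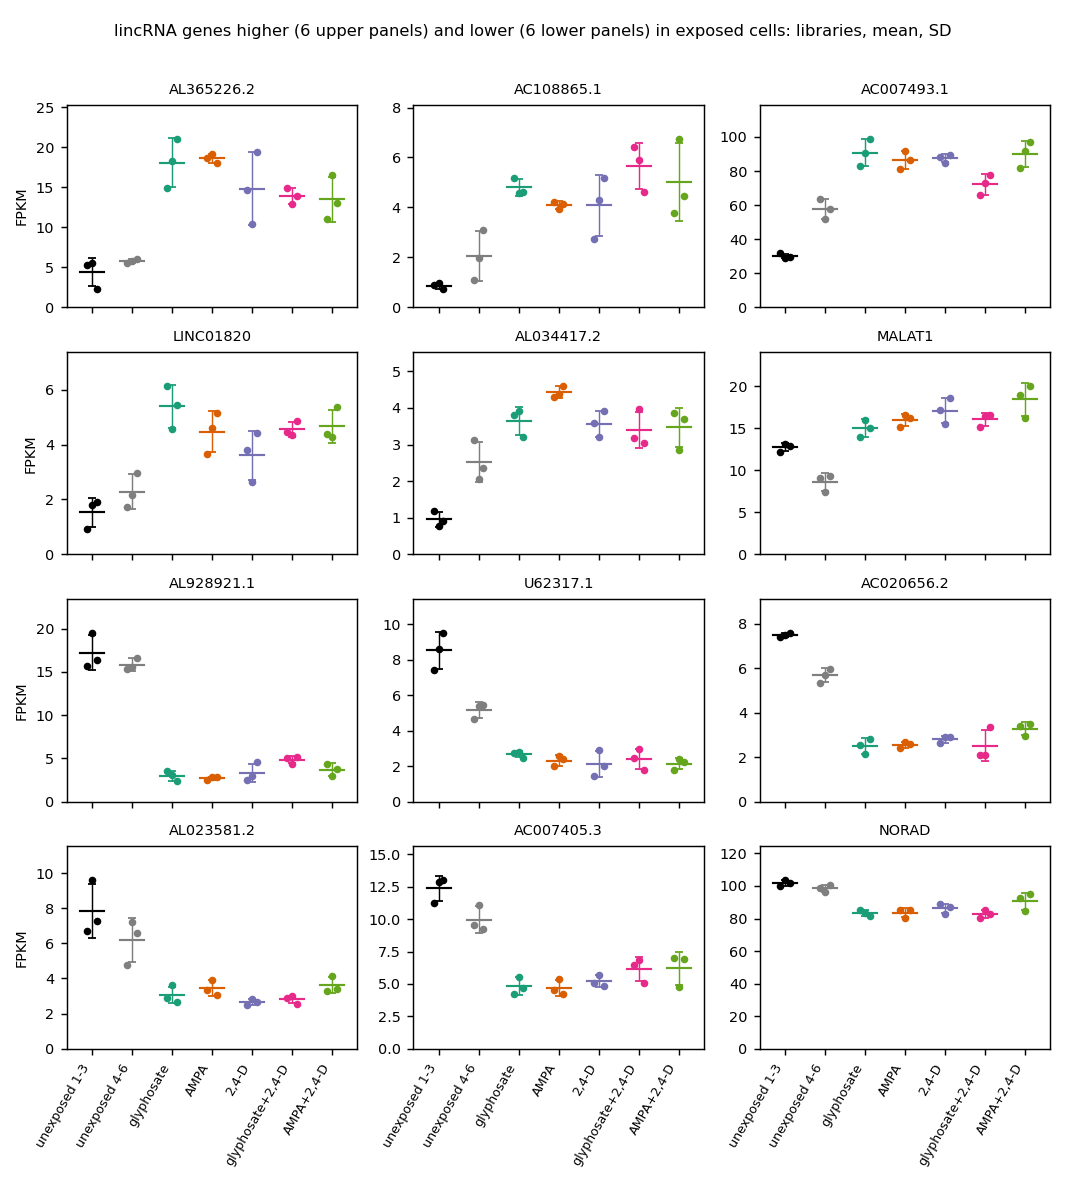
FPKM of 12 lincRNA genes in each library (points), with the group mean (horizontal line) and SD (bar, n = 3 for each of the 7 sets of libraries); each vertical axis starts at 0. The upper 6 panels show genes higher in exposed cells, such as AL365226.2 at 10.4 to 21.1 FPKM against 2.34 to 6.02, and the lower 6 show genes that were lower, such as AL928921.1 at 2.38 to 5.15 against 15.3 to 19.5.

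AL928921.1 showed the largest fall with each exposure. It is a 2-exon gene of 708 bases at chr1:9501092-9503471 with no known function, and SLC25A33, which codes for a mitochondrial pyrimidine nucleotide carrier, starts 36011 bases away. It lay at 15.7, 19.5 and 16.4 FPKM in unexposed 1 to 3 and at 15.3, 15.5 and 16.7 in unexposed 4 to 6, so the 2 unexposed sets overlapped. With glyphosate it lay at 3.56, 3.04 and 2.38 FPKM, with AMPA at 2.50, 2.83 and 2.82 and with 2,4-D at 2.49, 2.93 and 4.55. With glyphosate+2,4-D it lay at 5.04, 4.39 and 5.15 FPKM and with AMPA+2,4-D at 4.41, 2.97 and 3.76. Every exposed library lay far below every unexposed one, and the mean was highest with glyphosate+2,4-D among the exposures. The log2 change was -2.14, -2.23, -2.04, -1.58 and -1.90 in the order of exposures used above (SE 0.13, limma adjusted p at most 2.6e-08). SLC25A33 fell too, by 0.51 to 0.68 on the log2 scale.

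U62317.1 (KLHDC7B-DT) is a single-exon gene of 602 bases at chr22:50542305-50542906 whose start lies 2985 bases from that of KLHDC7B, on the other strand. It lay at 7.42, 8.63 and 9.51 FPKM in unexposed 1 to 3, at 4.64, 5.39 and 5.46 in unexposed 4 to 6 and at 1.42 to 2.95 in exposed cells (median 2.40). The 3 sets did not overlap, in the reverse order of AC007493.1. The log2 changes ran from -1.32 to -1.06 (SE 0.18), in a gene that entered the list through the unexposed libraries. KLHDC7B, a kelch-repeat protein gene, fell by 1.46 to 1.72 on the log2 scale, from a mean of 27.2 FPKM to 7.48 to 9.17. Exons of U62317.4 on the opposite strand overlap 257 bases of U62317.1.

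AC020656.2, AC007405.3 and AL355338.1 had the same falling order of steps. AC020656.2, a single exon of 5309 bases at chr12:69326574-69331882, lay at 7.40, 7.49 and 7.58 FPKM, then 5.35, 5.71 and 5.96, and at 2.10 to 3.48 in exposed cells (median 2.68; log2 -1.11 to -0.82), and it entered the list through the unexposed libraries. AC007405.3 at chr2:170771113-170778148 lay at 11.2, 12.8 and 13 FPKM, then 9.56, 11.1 and 9.21, and at 4.19 to 6.98 in exposed cells (median 5.09; log2 -1.09 to -0.76, limma adjusted p at most 7.0e-05). AL355338.1 at chr13:100086031-100088848 lay at 19.3, 19.1 and 21 FPKM, then 14.2, 16.0 and 15.1, and at 8.39 to 11.9 in exposed cells (median 9.17; log2 -0.90 to -0.61, limma adjusted p at most 0.00023). With U62317.1 and LINC02365 these make 5 of the 91, beside 4.09% of all genes tested. AC007405.3 and AL355338.1 were called lower with each exposure, and LINC02365 with each other than AMPA+2,4-D (log2 -0.20). LYZ, which codes for lysozyme and starts 16459 bases from AC020656.2, had log2 changes of 0.22 to 0.45 and was called with AMPA alone.

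AL023581.2 and AC148476.1 lay lower in exposed cells without that order between the unexposed sets. AL023581.2 at chr6:143039425-143042324 lay at 6.68, 9.61 and 7.29 FPKM in unexposed 1 to 3, at 4.76, 7.21 and 6.58 in unexposed 4 to 6 and at 2.47 to 4.17 (median 2.99) in exposed cells, and its log2 change ran from -1.11 to -0.78 (SE 0.13). AC148476.1 at chr12:132424504-132425208 lay at 4.68, 4.18 and 6.08 FPKM, then 5.67, 5.92 and 6.42, and at 1.68 to 3.22 (median 2.56) in exposed cells, with log2 changes of -0.98 to -0.71 (SE 0.13) in a gene that entered the list through the unexposed libraries. No exposed library of either gene reached an unexposed one.

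NORAD, the highest of the 91 and the carrier of the Pumilio sites printed above, fell by a small and steady amount. It lay at 99.8, 104 and 102 FPKM in unexposed 1 to 3 and at 98.6, 96.0 and 101 in unexposed 4 to 6. With glyphosate it lay at 85.3, 83.6 and 81.4 FPKM, with AMPA at 85, 80.2 and 85.4 and with 2,4-D at 88.7, 83.1 and 87.0. With glyphosate+2,4-D it lay at 80.5, 85.5 and 82.7 FPKM and with AMPA+2,4-D at 92.4, 84.8 and 94.8. The exposed libraries all lay below the unexposed ones, with the mean of AMPA+2,4-D nearest to them. The log2 change was -0.26, -0.26, -0.21, -0.27 and -0.14 in that order (SE 0.04, limma adjusted p from 1.6e-05 to 0.0048). It was called against each unexposed set alone, and with AMPA+2,4-D the call ended when replicate 2 of that mixture was left out (log2 -0.10). LINC00513 fell in like measure, by 0.19 to 0.35 on the log2 scale, from 23.3 to 26.2 FPKM in unexposed cells to 18.5 to 23.5 in exposed cells, where 1 exposed library reached the unexposed range. The call of LINC00513 with 2,4-D ended when 2,4-D replicate 1 was left out (log2 -0.13).

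Over all 21 libraries, 10 of the 91 lincRNAs had every exposed library above every unexposed one and 12 had every exposed library below, where 13.8% and 11.6% of all genes tested did. These shares are again near the background. The choice by mean level bears on these counts too: 2 of the 10 entered the list through the exposed libraries. Among the 70 with a mean of 3 or more in every group, 8 lay wholly above and 7 wholly below.

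PURPL, a p53-induced lincRNA, lay at 17.4, 17.3 and 17.3 FPKM in unexposed 1 to 3, at 25.8, 22.1 and 24.9 in unexposed 4 to 6 and between 14.7 and 21 in exposed cells. It was called lower with glyphosate, AMPA and glyphosate+2,4-D (log2 -0.29, -0.36 and -0.30), but those calls rested on unexposed 4 to 6: against unexposed 1 to 3 alone the changes ran from -0.13 to 0.17 and none was called. For glyphosate and glyphosate+2,4-D, leaving out any 1 of many libraries, unexposed 4, 5 and 6 among them, also ended the call, and for AMPA leaving out AMPA replicate 3 did (log2 -0.32). EPB41L4A-AS1 was called with 2,4-D alone (log2 -0.16, limma adjusted p = 0.016), and not without 2,4-D replicate 3 (log2 -0.14). Exons of EPB41L4A on the other strand overlap 1659 of its 3344 bases.

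The 2 microRNA host genes were not called against the 6 unexposed libraries. Their microRNAs were not measured here; the mature RNAs are printed from RefSeq to show what the host transcripts carry, with the seed (bases 2 to 8) in capitals, and the seeds are not shared.
hsa-miR-22-3p: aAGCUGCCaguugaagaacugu
hsa-miR-34a-5p: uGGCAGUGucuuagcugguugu
MIR34AHG, the host of the p53-induced miR-34a, lay at 4.01 to 5.02 FPKM in unexposed cells and at 3.83 to 5.03 in exposed cells, with log2 changes of -0.08 to 0.08. MIR22HG lay at 7.53, 9.42 and 9.71 FPKM in unexposed 1 to 3, at 4.71, 5.40 and 5.87 in unexposed 4 to 6 and at 5.65 to 6.94 in exposed cells. Exposed libraries thus lay below the first set and mostly above the second. The log2 changes were -0.45 to -0.38 against unexposed 1 to 3 (limma, called with each exposure) and 0.19 to 0.26 against unexposed 4 to 6 (limma, called with each exposure other than 2,4-D).

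**Figure D3:**
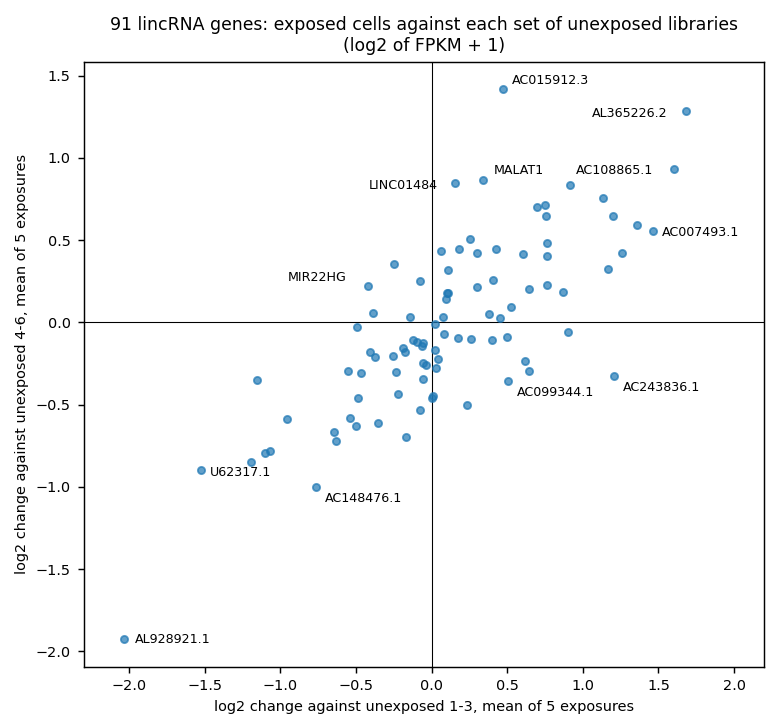
Mean log2 change over the 5 exposures of each of the 91 lincRNA genes against unexposed replicates 1-3 (horizontal axis) and against replicates 4-6 (vertical axis), 1 point per gene; both axes share the exposed libraries. Of the 91, 36 lie above 0 on both axes, 33 below 0 on both, 17 above 0 against replicates 1-3 and below 0 against 4-6, and 5 the reverse.

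The 2 unexposed sets differed in many of the 91 lincRNAs, as they did in many of all genes tested. In 29 all of unexposed 4 to 6 lay above all of unexposed 1 to 3, in 17 all lay below and in 45 the sets overlapped, where 22.9% and 22.6% of all genes tested were higher and lower. The split was seen in these data, so it is described and not tested. The log2 difference of 4 to 6 from 1 to 3 ran from -0.94 (AC015912.3) to 1.53 (AC243836.1).

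In several lincRNAs the exposed level lay between the 2 sets or reached the higher one, so that the direction depended on the set. AC243836.1 lay at 3.32, 4.40 and 2.00 FPKM in unexposed 1 to 3, at 11.1, 11.1 and 10.6 in unexposed 4 to 6 and at 6.55 to 11.6 in exposed cells. Its log2 change was 1.04 to 1.41 against the first set and -0.49 to -0.13 against the second, and none was called against all 6. AC099344.1 lay at 10.8, 9.04 and 9.09 FPKM, then 19.4, 17.6 and 18.0, and at 11.9 to 16.5 in exposed cells, wholly between the sets. Its changes were 0.35 to 0.60 and -0.51 to -0.26, each called by limma. AL353747.3 lay at 9.72, 9.53 and 9.09 FPKM, then 19.4, 15.5 and 22.9, and at 12.6 to 18.2 in exposed cells (0.57 to 0.71, each called, and -0.37 to -0.22, called with AMPA+2,4-D, glyphosate and 2,4-D). Its neighbour AL353747.2, on the other strand of the same region of chromosome 6, lay at 9.94, 8.88 and 6.54 FPKM, then 19.2, 13.7 and 19.2, and at 8.66 to 21.

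In others one unexposed set lay beside the exposed cells. LINC01484 lay at 16.3, 15.7 and 17 FPKM in unexposed 1 to 3, at 10.5, 8.94 and 9.83 in unexposed 4 to 6 and at 15.9 to 20.6 in exposed cells. Its log2 change was 0.02 to 0.23 against the first set and 0.71 to 0.92 against the second; of these the change with glyphosate+2,4-D against the first set was not called. AC015912.3 lay at 3.07, 3.23 and 2.67 FPKM, then 1.10, 1.27 and 0.858, and at 2.94 to 6.92 in exposed cells, with changes of 0.13 to 0.78 and 1.07 to 1.73; it entered the list through the exposed libraries. AL731684.1 lay at 16.3, 21.7 and 19 FPKM, then 9.60, 12.3 and 9.52, and at 6.21 to 10.7 in exposed cells, with changes of -1.34 to -0.98 (each called) and -0.54 to -0.18 (not called with either mixture). AC012065.3 was among the 10 highest by mean level. It lay at 22.3, 24.6 and 23.9 FPKM, then 34.7, 31.5 and 32.7, and at 20.2 to 31.7 in exposed cells. Its mean log2 change over the 5 exposures was 0.00 against the first set and -0.46 against the second. Over the 91, 4 had unexposed 4 to 6 above both other sets and 5 below both, beside 5.37% and 5.95% of all genes tested.

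Few lincRNAs were called between the exposures. In limma's test of any difference among the 5 exposures, 0 of the 91 passed at adjusted p under 0.05 and 11 had an unadjusted p under 0.05, beside 0.395% of all genes at the adjusted threshold. This test and those of the pairs took 1 residual spread per gene from all 6 groups. The difference between the 2 unexposed sets thus enters their error, though no unexposed library is compared. The 0 became 4 in a fit of the exposures alone and 2 without AMPA+2,4-D replicate 2. It became 6 with a replicate block, which kept only the first unexposed set. Of the 10 pairs of exposures, p-values adjusted within each pair, 1 gave a call: LIVAR was higher with AMPA+2,4-D than with glyphosate (1.32% of all genes tested were called higher there and 2.36% lower). For AMPA+2,4-D against AMPA 0.701% of all genes were higher and 2.01% lower, for AMPA+2,4-D against glyphosate+2,4-D 0.112% and 0.149%, and for glyphosate+2,4-D against AMPA 0.00746% and 0.0298%. In the other 6 pairs no gene of those tested was called (0.0%). Without AMPA+2,4-D replicate 2 the pairs gave 7 calls of the 91 in place of 1. With the replicate block they gave 18, and with the compared groups alone 0. The shares of all genes called in these refits were not computed. Without them these counts are no result about lincRNAs. A missed threshold does not show that the exposures acted alike. The 95% interval of a difference between 2 exposures reached a median of 0.32 on the log2 scale to each side. That width comes from the fit of all 6 groups, so it is not the spread among exposed libraries alone.

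LIVAR, a 2-exon gene of 384 bases at chr18:70335929-70337310, lay at 20.9, 20.5 and 23.0 FPKM with glyphosate, at 27.3, 25.6 and 17.9 with AMPA and at 21.3, 17.5 and 21.8 with 2,4-D. It lay at 25.6, 23.4 and 22.0 FPKM with glyphosate+2,4-D, at 29.9, 32.2 and 28.2 with AMPA+2,4-D and at 23.6 to 28.2 in unexposed cells. The AMPA+2,4-D libraries lay highest of the exposures. The difference from glyphosate was 0.47 on the log2 scale (95% interval 0.22 to 0.71, limma adjusted p = 0.038), and in the test among all 5 the adjusted p was 0.093. The call ended when AMPA+2,4-D replicate 1 or any glyphosate replicate was left out. Against unexposed cells LIVAR was called with 2,4-D (log2 -0.33), and not when 2,4-D replicate 2 was left out (log2 -0.23). Exons of LINC01909 on the other strand overlap 83 bases of LIVAR.

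LINC01146 had the smallest p of the 91 in the test among the exposures, which was not a call (limma adjusted p = 0.078). It lay at 5.33, 6.75 and 6.47 FPKM with glyphosate and at 5.63, 5.44 and 6.30 with glyphosate+2,4-D, against 7.30, 7.87 and 9.24 with AMPA+2,4-D and 7.26, 8.01 and 8.37 with 2,4-D. With AMPA it lay at 7.04, 6.93 and 7.20 FPKM and in unexposed cells at 8.11 to 10.5. The difference of AMPA+2,4-D from glyphosate+2,4-D was 0.42 (95% interval 0.22 to 0.63, limma adjusted p = 0.060). AC005332.3 lay at 9.67, 6.48 and 10.7 FPKM with AMPA+2,4-D and at 5.14, 4.41 and 7.41 with glyphosate+2,4-D, which overlap. The difference was 0.58 (95% interval 0.25 to 0.91, limma adjusted p = 0.089). AL928921.1 differed by 0.66 between glyphosate+2,4-D and AMPA (95% interval 0.35 to 0.96, limma adjusted p = 0.15) and by 0.56 between glyphosate+2,4-D and glyphosate (95% interval 0.25 to 0.87, adjusted p = 0.31), higher in the mixture and called in neither. LINC02575 was at -0.33 with glyphosate+2,4-D against glyphosate (95% interval -0.53 to -0.12, limma adjusted p = 0.37), also with no call.

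**Figure D4:**
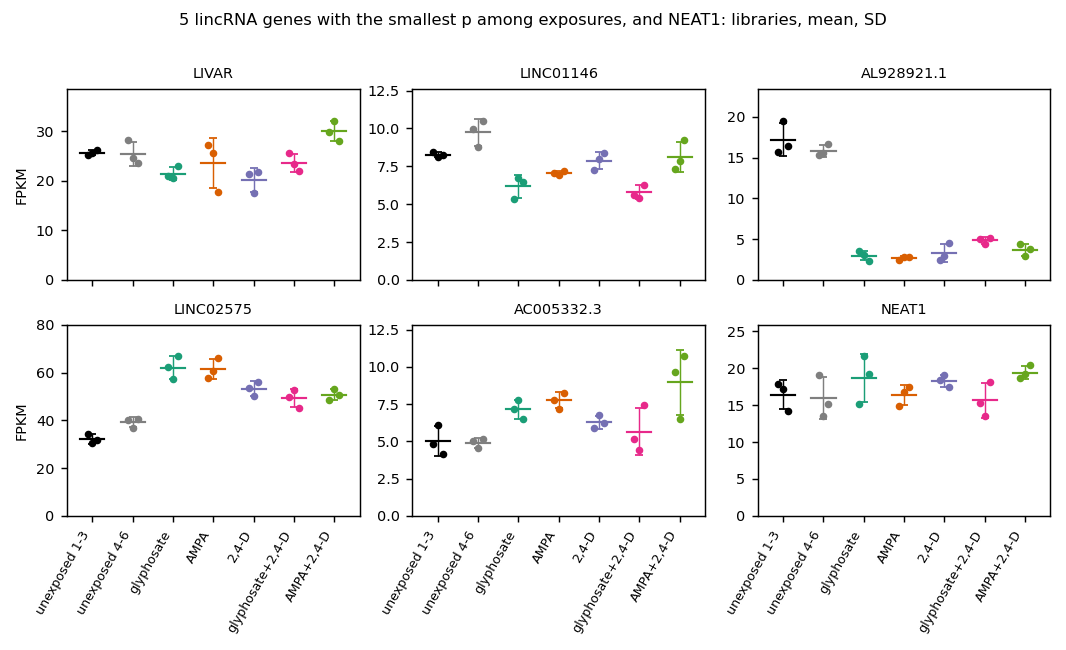
FPKM of 6 lincRNA genes in each library (points) with the group mean (horizontal line) and SD (bar, n = 3 for each of the 7 sets); each vertical axis starts at 0. LIVAR lies at 28.2 to 32.2 with AMPA+2,4-D and at 20.5 to 23.0 with glyphosate, and the NEAT1 libraries of exposed and unexposed cells overlap.

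lincRNA genes often start beside a protein-coding gene, and for some the levels of both moved together. Of the 91, 16 started within 5 kb of a protein-coding gene on the other strand and pointed away from it (divergent), 8 overlapped one on the same strand, 6 overlapped one on the opposite strand, 2 lay within 5 kb downstream of one on the same strand and 59 had another arrangement. Overall 40 lay within 5 kb of a protein-coding gene or overlapped one, and 35 of these neighbours passed the filter. Across those 35 pairs Pearson's r between the log2 changes of lincRNA and neighbour was 0.48 to 0.54 over the 5 exposures (Spearman's rho 0.22 to 0.34). Across the 43 tested pairs farther apart r was 0.36 to 0.52 (rho 0.38 to 0.52). With each exposure rho was lower in the near pairs, while r was higher in them with each exposure other than 2,4-D. These values do not show that near pairs moved together more than far ones. Near and far pairs both hold lincRNAs that entered the list through the exposed or the unexposed libraries alone, so their changes follow in part from the choice. U62317.1, in the near pair with the largest fall of both genes, is one of them. The values of r without such pairs were not computed. The pairs share all libraries, genes are not independent replicates, and the values are descriptions.

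**Figure D5:**
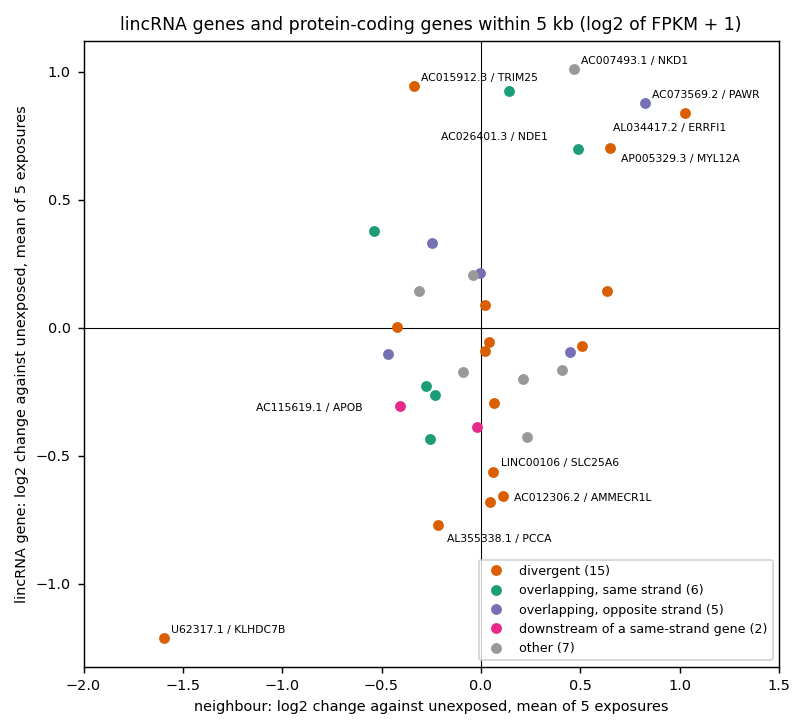
Mean log2 change over the 5 exposures of 35 lincRNA genes (vertical axis) and of the tested protein-coding gene within 5 kb (horizontal axis), coloured by arrangement. U62317.1 and KLHDC7B lie lowest together, AL034417.2 and ERRFI1 lie high together, and AC015912.3 lies high where TRIM25 lies below 0.

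Some pairs differed from unexposed cells in the same direction. AL034417.2 (ERRFI1-DT), whose promoter is printed above, starts 430 bases from ERRFI1, which codes for an inhibitor of the EGF receptor. It lay at 1.19, 0.786 and 0.909 FPKM in unexposed 1 to 3, at 3.13, 2.07 and 2.36 in unexposed 4 to 6 and at 2.86 to 4.61 in exposed cells, and only unexposed 4 reached the exposed range. Its log2 changes, in a gene that entered the list through the exposed libraries, were 0.74 to 1.06, and ERRFI1 rose by 0.91 to 1.12, from a mean of 192 FPKM to 356 to 413. AC073569.2, which entered in the same way, had log2 changes of 0.63 to 1.16, and PAWR, which codes for a pro-apoptotic protein, rose by 0.73 to 0.89. As 248 of the 354 bases of AC073569.2 overlap exons of PAWR on the other strand, reads of these genes cannot be told apart without strand. With AMPA+2,4-D its log2 change was 0.51 and 0.50 when replicate 1 or 2 of that mixture was left out.

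Further pairs, chosen after their values were seen, show both like and unlike changes. AP005329.3 rose by 0.64 to 0.77 and MYL12A, a myosin light chain gene 395 bases from its start, by 0.59 to 0.70; exons of AP005329.2 cover all 686 bases of AP005329.3 on the other strand. AC026401.3, inside NDE1 on the same strand, rose by 0.52 to 0.90 and NDE1 by 0.40 to 0.64. Any reads of unspliced NDE1 RNA there could not be told apart from those of AC026401.3, even with strand. AC099795.1 overlaps SLC2A1, the gene of the glucose transporter GLUT1, on the same strand for 112 bases; it entered the list through the exposed libraries and had log2 changes of 0.56 to 1.22, and SLC2A1 was at 0.04 to 0.27. With glyphosate+2,4-D the log2 change of AC099795.1 was 0.41 when replicate 2 of that mixture was left out and 0.28 against unexposed 4 to 6 alone.

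Other pairs differed in direction or in size. AC015912.3 was at 0.60 to 1.25, while TRIM25, a ubiquitin ligase gene whose start is 106 bases away, fell by 0.27 to 0.42. AC015912.3 rested on 6 to 40 reads per library. AL355338.1 fell by 0.61 to 0.90, and PCCA, a subunit gene of propionyl-CoA carboxylase, by 0.15 to 0.26. AC012306.2 fell by 0.53 to 0.83 beside AMMECR1L at 0.08 to 0.18; its call with glyphosate ended when glyphosate replicate 3 was left out (log2 -0.37). OSER1-DT was at 0.05 to 0.26 and OSER1 rose by 0.52 to 0.69. AC015912.3 and OSER1-DT entered the list through the exposed libraries and AC115619.1 through the unexposed ones. AC115619.1, 512 bases downstream of APOB, the gene of apolipoprotein B, on the same strand, was at -0.51 to -0.03, and APOB fell by 0.26 to 0.56. Any APOB RNA that ran on past the gene's end could not be told apart from AC115619.1, and this was not tested.

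No feature of the transcripts followed the changes closely. Across the 91 genes Pearson's r between the log2 change and GC content, log10 gene length, log10 mean FPKM or exon number was at most 0.156 in size in any exposure. Of the 29 genes with a single exon 7 were higher and 12 lower with glyphosate, and of the 62 with more exons 22 were higher and 15 lower. In 20 of the 91, exons overlap those of a gene on the opposite strand; 6 of these were higher and 5 lower with glyphosate, and of the other 71, 23 were higher and 22 lower. Of all genes tested, 27.7% were higher and 25.1% lower with glyphosate. Over the 5 exposures, 5 to 7 of the 29 were higher and 10 to 12 lower. Of the 62, 18 to 22 were higher and 9 to 15 lower. The subsets include the 10 genes that entered the list through the exposed libraries, all called higher with glyphosate. The subsets were not tested against each other, so their counts are no result about exons or overlap.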

How the data were processed

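RNA-seq was measured in 21 libraries. Per the labels' protocols, RNA was isolated by QIAzol followed by RNeasy, and a SMARTer kit gave the libraries; strand is not given in the sources used here. Per the submitters' processing notes the authors used HISAT2 2.0.5, featureCounts 1.5.0-p3 and GRCh38, and the deposited values are FPKM per gene, in 1 table per group. Each gene's length, also deposited by the authors, is in bases. FPKM times length came to whole reads within a tolerance of 0.1 read, so reads could be recovered; how the authors scaled FPKM is not stated, and the library total that FPKM implies, over the recovered reads, was 1.03 to 1.08 for unexposed and 0.942 to 1.01 for exposed libraries.

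A gene absent from a table was taken as 0. Genes in all tables with FPKM of at least 1 in 3 libraries (13405 genes) were fitted with limma 3.58.1 (R 4.3.3) on log2(FPKM + 1), with 6 group means, a mean-variance trend and no replicate block; the log2 change understates that of low genes. The script was tested on simulated data. No value column was left unmapped (0). All 28808 genes had the length of GENCODE 29. Members, lists and tests were chosen with earlier results of these data known. Named were the 10 highest members, the 5 largest changes called each way per exposure and the 5 largest each way between unexposed sets. The 5 smallest p among exposures, those at the edge of the threshold, NEAT1, MALAT1 and microRNA hosts were named too. Further members, LINC02365, OSER1-DT, AP005329.3 and AC026401.3, were named after their values were seen. Alternatives were another pseudocount, no filter, median-of-ratios and TPM scaling, voom on recovered reads, the compared groups alone, a replicate block, either unexposed set, higher thresholds and libraries left out.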

Additional observations from a re-analysis of the deposited data

Results flagged for a closer look

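AL365226.2 lay at 2.34 FPKM in unexposed 3, far below the other 5 unexposed libraries at 5.26 to 6.02 FPKM, a gap larger than the 95% critical value of Dixon's test for 6 samples. AL928921.1 lay at 19.5 FPKM in unexposed 2, far above the other 5 at 15.3 to 16.7. Over all 91 lincRNA genes 5 had such an unexposed library, and chance alone flags about 1 in 20 groups. Leaving out either library changed no call of these genes.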

How the results depend on the processing

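Of 6045 values of the 39 named lincRNAs under other settings, 5792 kept direction and side of the threshold, 127 lost a call, 111 gained one and 15 had the other sign and a call. Those 15 came mostly from unexposed 4 to 6 alone: MIR22HG became 0.22 with glyphosate, 0.26 with AMPA, 0.22 with AMPA+2,4-D and 0.20 with glyphosate+2,4-D; AC099344.1 became -0.29 with glyphosate, -0.33 with AMPA, -0.40 with 2,4-D and -0.26 with AMPA+2,4-D, and 0.35 with glyphosate+2,4-D against unexposed 1 to 3 alone; AL353747.3 became -0.34 with glyphosate, -0.37 with AMPA+2,4-D and -0.29 with 2,4-D; AC243836.1 became -0.49 with each mixture. Counts of the 91 higher and lower with 1 library left out ran from 23 to 30 and 23 to 29 with glyphosate, 22 to 27 and 22 to 27 with AMPA, 19 to 25 and 18 to 25 with 2,4-D, 19 to 25 and 20 to 26 with glyphosate+2,4-D, and 22 to 31 and 16 to 19 with AMPA+2,4-D. Without AMPA+2,4-D replicates 1 and 3 together 11 were higher with that mixture, where 1 library was left. At a mean of 5 FPKM or more (54 genes) the counts were 15 and 17, 13 and 15, 12 and 13, 11 and 14, and 16 and 10. At 3 or more in every group (70 genes) fewer were higher with glyphosate (19), 2,4-D (15) and glyphosate+2,4-D (15), and lower with AMPA (16), 2,4-D (14), glyphosate+2,4-D (15) and AMPA+2,4-D (11); both thresholds hold fewer genes. Among the 5 exposures 0 to 2 were called with 1 library left out (2 without AMPA+2,4-D replicate 2) and 4 in a fit of the exposures alone. The single call over the 10 pairs became 0 with no filter, on TPM, with the compared groups alone and without AMPA+2,4-D replicates 1 and 3, 2 by voom, and 0 to 7 with 1 library left out: 0 without AMPA+2,4-D replicate 1 or any glyphosate replicate, 2 without unexposed 1, 3 or 4 or AMPA replicate 3, 3 without unexposed 6 and 7 without AMPA+2,4-D replicate 2. The main fit took its residual spread from all 6 groups, so the tests among exposures include the difference between the unexposed sets. The part of that difference in these shifts was not tested, nor was any other cause. Shares of all genes called were computed for the main fit and for each unexposed set alone. For the other refits they were not, so shifts in those counts are no result about lincRNAs.

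Pairing by replicate number was checked. Same-numbered libraries correlated at -0.119 to 0.0884 and differently numbered ones at -0.107 to 0.101, and 7 of 18 lay closest to their own number. No pairing by number was seen. The labels do not say whether a number marks a shared culture or day, and this check cannot settle it. With the replicate block, which uses unexposed 1 to 3 only, 6 were called among the exposures and 18 over the pairs. The shares of all genes called with that block were not computed. AC099344.1 with glyphosate+2,4-D became 0.35. Shallow genes limit precision: 27 of the 91 had under 30 reads in some library.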
